A study of Mus musculus with 8 samples.

Results

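The 9 genes described here encode transcription factors of the stratified squamous lineage: *Trp63*, *Tfap2a*, *Tfap2c*, *Sp6*, *Grhl1*, *Grhl3*, *Ovol1*, *Zfp750* and *Barx2*. They are 9 of the 52325 genes in the deposited count table, found by matching each Ensembl identifier, without its version, to the gene symbol. The group was selected on the comparison of genotypes in these same libraries, so the genotype differences of the 9 genes are given as a description. Calls and adjusted p-values of the 9 genes, where given, come from fits over all genes and are not independent of that choice. The libraries come from endometrium, the mucosa that lines the uterus, which was taken by laser capture from frozen sections of the uterus of 4 WT and 4 *Thra1PV/+* female mice, all synchronised at metestrus. *Thra1PV/+* mice carry, in the germ line and so in all tissues, a knock-in of the PV mutation in 1 allele of *Thra*, which encodes the thyroid hormone receptor TRα1, and the mutant receptor acts as a dominant negative on the normal receptors. WT mice carry normal alleles, and no hormone or drug treatment is given for either genotype. The age of the mice behind these libraries is not given in the sources used here.

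A simple columnar epithelium normally lines the mouse uterus, whereas the vagina and the skin carry a stratified squamous epithelium. p63, the product of *Trp63*, is required for stratified epithelia and marks their basal cells, and AP-2 and Sp family factors work with it on keratin and adhesion genes. As squamous cells leave the basal layer, Grainyhead-like factors, OVOL1 and ZFP750 take part in turning off the basal programme and turning on the genes of desmosomes and of the cornified envelope. Isoforms of p63 that start at different promoters, with or without the transactivation domain, cannot be told apart in counts summed per gene.

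Expression of 8 of the 9 genes was higher in every *Thra1PV/+* library than in any WT library. The largest differences were in *Trp63* and *Tfap2a*, with fitted ratios of 69.0 and 66.2, and *Barx2* was the exception, at 26.6 ± 6.87 CPM (SD, n = 4) in *Thra1PV/+* and 34.6 ± 9.01 CPM in WT endometrium. Of the 9 genes, 7 were called higher and 0 lower by edgeR's quasi-likelihood test, where a call requires a fold change of at least 2 and an adjusted p of at most 0.1. Over the 18174 genes tested, 0.924% were called higher and 0.066% lower. All *Thra1PV/+* libraries lay above all WT libraries in 3.55% of the tested genes, and below them in 2.49%. These shares stand beside the counts for scale only, because the genes were chosen by this contrast. CPM denotes counts scaled to the library size after TMM normalization, and log2 fold changes are *Thra1PV/+* against WT with their standard error. In bulk tissue, fewer cells of a type and less RNA per cell cannot be told apart.

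Library totals lay between 48791883 and 59819099 counts. The epithelial identity of the tissue was checked with 16 marker genes such as *Epcam*, *Cdh1* and *Krt8*. All 16 passed the filter, and 0 were called by edgeR or DESeq2 or had an unadjusted p under 0.05. Their summed level ranged from 3550 to 9550 CPM in *Thra1PV/+* and from 3770 to 13100 CPM in WT libraries. It was low in *Thra1PV/+* library 1 and in WT libraries 1 and 2, and in these same libraries 12 endometrial stroma markers summed to between 6130 and 6690 CPM, against 625 to 2260 CPM in the other 5. WT library 1 stood apart in 9 smooth muscle markers, which summed to 13500 CPM there and to between 151 and 1180 CPM elsewhere. *Thra* itself was at 80.1 ± 34.2 CPM (SD, n = 4) in *Thra1PV/+* and 78.0 ± 33.7 CPM in WT libraries, and its counts do not separate the PV allele from the normal allele, so they do not check the genotype labels.

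Promoter sequences were found in the RefSeq table for 3 of the 9 genes, *Grhl1*, *Grhl3* and *Tfap2a*. No other of the 9 genes was found there, so these 3 are shown. Each run holds the 250 bases before an annotated start, 5′ to 3′ on the strand of the gene (RefSeq, GRCm38.p6). Capitals mark matches, on either strand, to GGGCGG, a GC box that Sp and Krüppel-like factors recognise, or to GCCNNNGGC, an AP-2 consensus. The *Grhl1* run lies at chr12:24572037-24572286 on the plus strand, *Grhl3* at chr4:135573633-135573882 on the minus strand, and the *Tfap2a* run at chr13:40734921-40735170 on the minus strand.
Grhl1: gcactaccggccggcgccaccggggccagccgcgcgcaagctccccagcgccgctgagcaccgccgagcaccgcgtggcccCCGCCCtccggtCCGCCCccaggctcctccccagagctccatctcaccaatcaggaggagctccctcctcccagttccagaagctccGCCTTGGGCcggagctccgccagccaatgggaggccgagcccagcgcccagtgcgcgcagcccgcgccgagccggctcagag
Grhl3: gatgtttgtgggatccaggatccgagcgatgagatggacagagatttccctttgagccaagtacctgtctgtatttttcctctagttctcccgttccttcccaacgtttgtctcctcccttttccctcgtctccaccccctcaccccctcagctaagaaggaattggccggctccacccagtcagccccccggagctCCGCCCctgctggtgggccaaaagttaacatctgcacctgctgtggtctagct
Tfap2a: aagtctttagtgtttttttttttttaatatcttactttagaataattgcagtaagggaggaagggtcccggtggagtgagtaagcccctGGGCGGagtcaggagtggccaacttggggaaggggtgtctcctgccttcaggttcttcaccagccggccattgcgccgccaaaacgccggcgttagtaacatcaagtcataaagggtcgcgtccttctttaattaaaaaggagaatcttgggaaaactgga

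The table holds 1 further start for *Grhl1* (chr12:24580469-24580718) and 1 for *Tfap2a* (chr13:40733796-40734045), giving 5 windows in all. A GC box was present in 4 of the 5 windows, and 32.7% of the 32851 promoter windows of that length in the table hold it. *Grhl1* had 2 GC boxes, starting 169 and 157 bases before the start, on the minus strand. The AP-2 sequence occurred in the upstream *Grhl1* window alone, as GCCTTGGGC, 82 bases before the start, against 13.7% of all windows. No match in the 5 windows was found for AACNNGTT, a Grainyhead-like consensus (3.64% of all windows), or AGGTCA, the core element that thyroid hormone receptors recognise (14.0%). TATAAA, the TATA box (12.4%), and a half-site of the p53 family consensus (7.13%) were not found either. The upstream *Grhl1* window was 75.6% G and C, the *Grhl3* window 56.0% and the *Tfap2a* window printed above 47.6%, beside a median of 52.4% over the table. A match of letters is a description of the sequence and not a measured binding site.

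*Trp63*, the factor on which basal squamous identity rests, is the longest of the 9 genes (ENSMUSG00000022510, chromosome 16, 25683763 to 25892102, plus strand, GRCm38). It had 56.4, 93.5, 74.5 and 53.2 CPM in *Thra1PV/+* libraries 1 to 4, and 0.458, 2.04, 0.836 and 0.670 CPM in WT libraries 1 to 4. The lowest *Thra1PV/+* library was 26.1 times the highest WT library, and WT library 2 stood above the other 3 WT libraries. *Trp63* was thus not at 0 in WT endometrium, where 24 to 113 counts were assigned to it. Its log2 fold change was 6.11 (standard error 0.53). GENCODE release M21 lists 8 coding transcripts of *Trp63*, with starts spread from 25683763 to 25801916.

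The AP-2 genes and *Sp6* also belong to the basal programme. *Tfap2a*, which encodes AP-2α, a factor of early ectoderm and basal keratinocytes (ENSMUSG00000021359, chromosome 13, 40715302 to 40738376, minus strand), had 16.5, 34.9, 20.3 and 16.0 CPM in the *Thra1PV/+* libraries and 0.305, 0.379, 0.378 and 0.251 CPM in the WT libraries. The WT libraries lay close together, within a 1.51-fold range, and *Thra1PV/+* library 2 was well above the other 3 of its genotype. The lowest *Thra1PV/+* library was 42.3 times the highest WT library, the widest such gap among the 9 genes, and the log2 fold change was 6.05 (standard error 0.37). *Tfap2c*, which encodes AP-2γ and acts with AP-2α in epidermis (ENSMUSG00000028640, chromosome 2, 172549593 to 172558622, plus strand), had 12.2, 16.1, 14.4 and 10.6 CPM against 0.534, 1.32, 0.577 and 0.963 CPM. Here the *Thra1PV/+* libraries were the tighter group, with a 1.52-fold range against 2.47-fold in WT, and the log2 fold change was 3.97 (standard error 0.37). *Sp6*, also called epiprofin, a zinc finger factor of teeth, hair follicles and skin (ENSMUSG00000038560, chromosome 11, 97013394 to 97024734, plus strand), had 4.43, 6.11, 5.70 and 4.29 CPM against 0.420, 0.578, 0.597 and 0.440 CPM. It had the narrowest spread of the 9 genes, a 1.42-fold range in each genotype, and its log2 fold change was 3.33 (standard error 0.29).

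**Figure D1:**
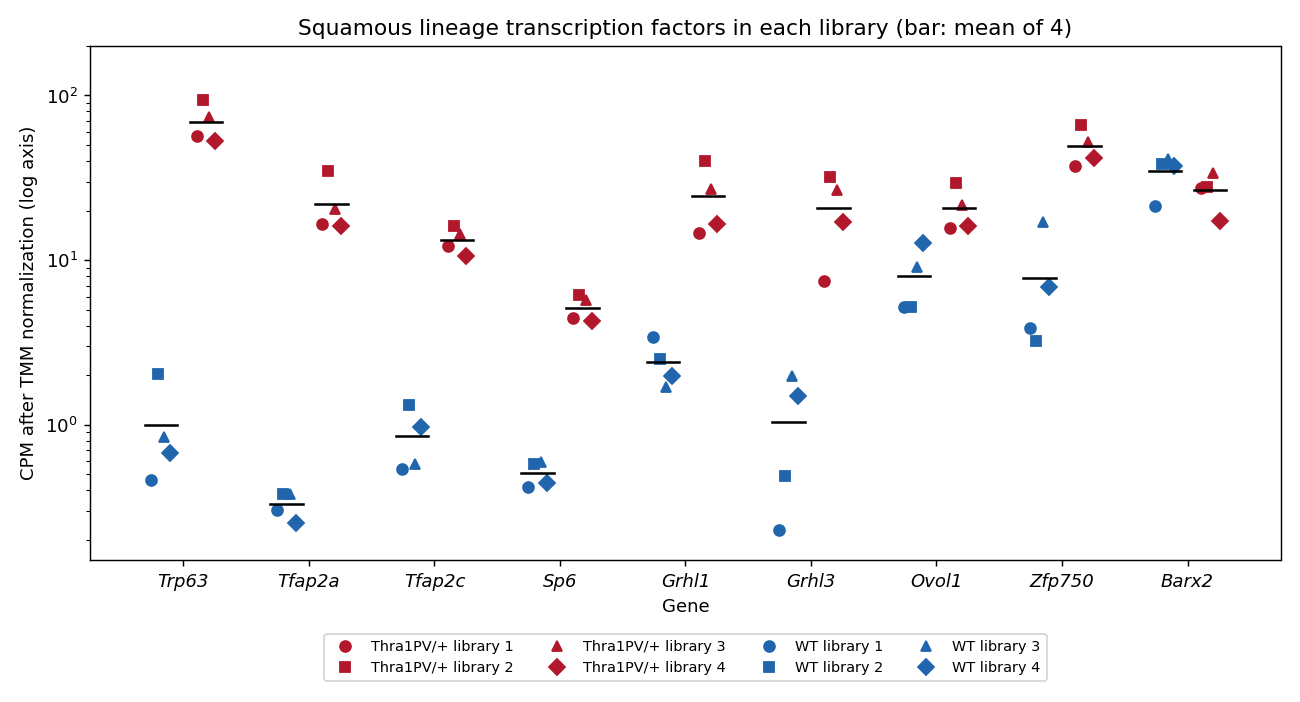
Level of each of the 9 genes in CPM after TMM normalization (log axis) for the 4 WT libraries (blue) and the 4 *Thra1PV/+* libraries (red), with a symbol for each library number and a bar at the mean of 4. The red and blue symbols do not overlap for 8 genes, come closest in *Ovol1*, and overlap in *Barx2*.

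The Grainyhead-like genes encode factors of the epidermal barrier and of cell adhesion. *Grhl1*, a regulator of desmosomal cadherins (ENSMUSG00000020656, chromosome 12, 24572283 to 24617391, plus strand), had 14.6, 39.9, 26.9 and 16.5 CPM in the *Thra1PV/+* libraries and 3.40, 2.51, 1.69 and 1.97 CPM in the WT libraries. Its WT levels were highest in library 1, which no other of the 9 genes showed, and the log2 fold change was 3.35 (standard error 0.40). *Grhl3*, needed for barrier formation and wound closure (ENSMUSG00000037188, chromosome 4, 135541888 to 135573630, minus strand), had 7.44, 32.1, 26.6 and 17.1 CPM against 0.229, 0.488, 1.97 and 1.49 CPM. *Grhl3* varied more than any other of the 9 genes within each genotype, 4.32-fold in *Thra1PV/+* and 8.60-fold in WT libraries. *Thra1PV/+* library 1 was far below the other 3, and still 3.78 times the highest WT library. The log2 fold change of *Grhl3* was 4.32 (standard error 0.77), and its call was lost in 5 of the 8 fits with 1 library removed, those without *Thra1PV/+* libraries 2 (log2 fold change 4.03), 3 (4.18) or 4 (4.40) or WT libraries 2 (4.12) or 4 (4.54).

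*Ovol1* and *Zfp750* act late in the squamous programme. *Ovol1*, a zinc finger repressor that helps cells leave the proliferating state (ENSMUSG00000024922, chromosome 19, 5549136 to 5560646, minus strand), had 15.7, 29.3, 21.7 and 16.0 CPM in *Thra1PV/+* and 5.15, 5.15, 9.11 and 12.7 CPM in WT libraries. The genotypes did not overlap, but the gap was narrow, since the lowest *Thra1PV/+* library was 1.23 times the highest WT library. *Zfp750*, a p63 target that drives terminal differentiation of keratinocytes (ENSMUSG00000039238, chromosome 11, 121510978 to 121519333, minus strand), had 37.3, 66.2, 52.1 and 41.6 CPM against 3.85, 3.21, 17.1 and 6.87 CPM. WT library 3 was far above the other WT libraries, and the log2 fold change was 2.67 (standard error 0.54), or 3.43 without that library. These genes are the nearest to the threshold on either side, *Zfp750* just inside it with an adjusted p of 0.0973 from edgeR's quasi-likelihood test, and *Ovol1*, with a log2 fold change of 1.37 (standard error 0.36), the nearest outside, well past 0.1, with 0.227. When 1 library was left out at a time, *Zfp750* was called in 1 of the 8 fits, the fit without WT library 3, and its log2 fold change in the other 7 lay between 2.45 and 2.83. *Ovol1* was called in 0 of the 8. DESeq2, which the study used, called *Ovol1* as well, and so 8 of the 9 genes, and it called higher 2.57% of the 22073 genes to which it gave an adjusted p.

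*Barx2*, a homeobox gene of developing epithelia, hair follicles and muscle (ENSMUSG00000032033, chromosome 9, 31846044 to 31913462, minus strand), had 27.4, 27.9, 33.9 and 17.3 CPM in the *Thra1PV/+* libraries and 21.4, 38.3, 41.3 and 37.5 CPM in the WT libraries. The genotypes overlapped, with 1 WT library below 3 of the *Thra1PV/+* libraries. Its log2 fold change was -0.38 (standard error 0.26) and ranged from -0.52 to -0.22 when each library was left out in turn. *Barx2* was thus already expressed in WT endometrium.

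Levels of different genes can be compared only per length. In the deposited TPM, which are scaled for transcript length and appear quantile-normalized across libraries, the median over *Thra1PV/+* libraries was 18.8 for *Trp63* (15.1 to 25.9), 18.8 for *Barx2* (12.1 to 22.8) and 16.9 for *Zfp750* (13.3 to 23.3), and the ranges of these 3 genes overlapped. *Tfap2a*, *Grhl3*, *Ovol1*, *Grhl1* and *Tfap2c* followed with medians between 6.47 and 9.48 TPM and overlapping ranges. *Sp6* was last at 1.93 TPM (1.39 to 2.60), below the lowest library of each of the others except *Grhl3* in *Thra1PV/+* library 1 (2.45 TPM). The order was another in WT endometrium. *Barx2* led with a median of 25.9 TPM (15.2 to 27.5), above *Ovol1* at 3.34 TPM (2.20 to 5.83) with no overlap. *Zfp750* followed at 2.03 TPM (1.10 to 6.63), which overlapped with *Ovol1*, and the other 6 genes had medians between 0.161 and 0.890 TPM. *Trp63* was therefore among the most abundant of the 9 transcripts in *Thra1PV/+* libraries and at rank 7 of 9 in WT libraries.

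The *Thra1PV/+* libraries kept a similar order from gene to gene, and the order of the WT libraries varied more. *Thra1PV/+* library 2 was the highest of its genotype in 8 of the 9 genes and library 3 the next in 8, whereas the lowest was library 4 in 5 genes and library 1 in 4. In WT endometrium the highest library was library 3 for 4 genes, library 2 for 3, and libraries 1 and 4 for 1 gene each. Deviations of log2 CPM from the genotype mean were compared over the 8 libraries, as a description, since all pairs share the same libraries, depth and tissue makeup. Of the 36 pairs of genes, 31 had a Pearson r above 0, with a median of 0.37 (n = 8 libraries). The highest values were 0.86 for *Grhl3* with *Ovol1*, 0.83 for *Grhl3* with *Zfp750* and for *Tfap2a* with *Sp6*, and 0.82 for *Trp63* with *Tfap2c*. *Ovol1* and *Zfp750* had an r of 0.71. Over the 8 libraries, *Grhl3*, *Ovol1* and *Zfp750* had low r with *Trp63* (0.23, 0.01 and -0.08), as did *Grhl1* (0.22). The lowest value was -0.29 for *Tfap2c* with *Zfp750*. The low values with *Trp63* pool unlike genotypes. In *Thra1PV/+*, all of these genes and *Trp63* were above their means in libraries 2 and 3 and below in 1 and 4. In WT library 2, *Trp63* deviated by 1.22, and *Grhl3*, *Ovol1* and *Zfp750* by -0.62, -0.53 and -0.94.

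**Figure D2:**
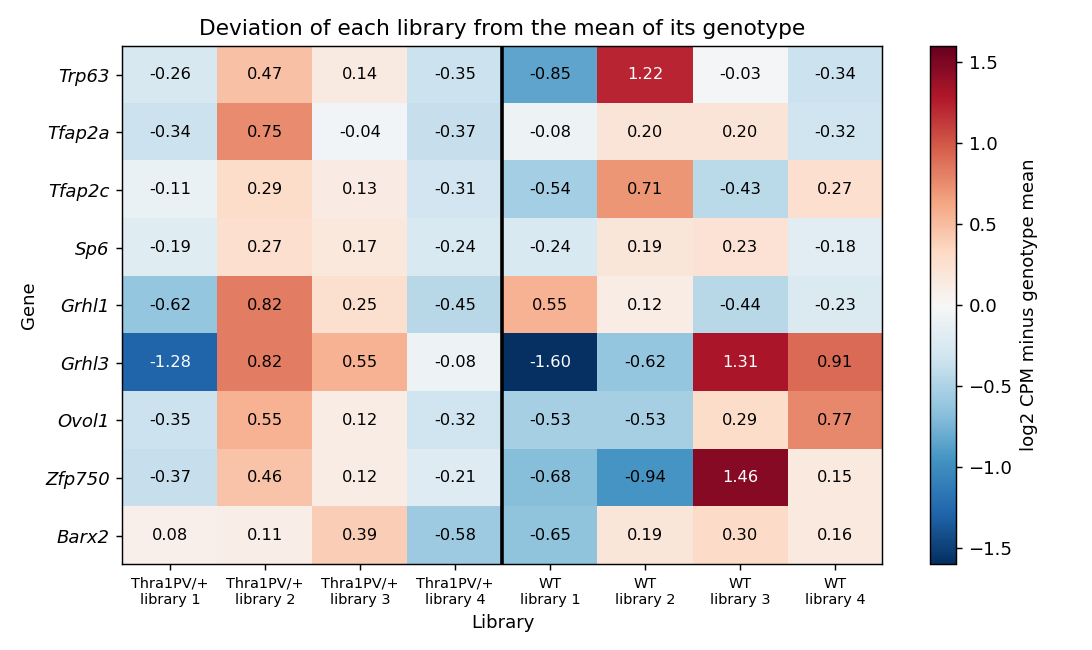
Deviation of log2 CPM from the mean of the genotype, for each of the 9 genes (rows) in each library (columns), with colour from blue (below the mean) to red (above). *Thra1PV/+* library 2 is above its genotype mean in every row, and WT libraries 3 and 4 are above theirs for *Grhl3*, *Ovol1* and *Zfp750*, whereas *Trp63* peaks in WT library 2.

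*Grhl3*, *Ovol1* and *Zfp750* were high in those WT libraries that were rich in epithelial markers, and *Grhl1* was low there. WT libraries 3 and 4, with 13094 and 10597 CPM of epithelial markers, had 1.97 and 1.49 CPM of *Grhl3*, and WT libraries 1 and 2, with 3773 and 3957 CPM, had 0.229 and 0.488 CPM. *Grhl1* had 1.69 and 1.97 CPM in WT libraries 3 and 4, and 3.40 and 2.51 CPM in WT libraries 1 and 2. *Trp63* did not follow the markers, with 2.04 CPM in WT library 2 and 0.836 CPM in WT library 3. When each gene was divided by the epithelial marker sum of its library, the range over WT libraries narrowed from 8.60-fold to 2.48-fold for *Grhl3*, from 5.32-fold to 2.01-fold for *Zfp750* and from 2.46-fold to 1.96-fold for *Ovol1*. It widened from 4.46-fold to 8.16-fold for *Trp63*, from 1.51-fold to 4.04-fold for *Tfap2a* and from 2.01-fold to 6.97-fold for *Grhl1*. It also widened for *Tfap2c*, *Sp6* and *Barx2*. On this scale, 8 of 9 genes still showed no overlap between the genotypes. The share of all tested genes without overlap on this scale was not computed, and the 9 genes were chosen by this contrast. *Trp63* came to between 7.61 and 15.9 CPM per 1000 CPM of epithelial markers in *Thra1PV/+* libraries and to between 0.0632 and 0.516 in WT libraries. For *Ovol1* these values were 2.27 to 4.41 and 0.696 to 1.37, a wider gap than in CPM. With the epithelial markers as a covariate in the edgeR fit, a choice made after seeing the data, 8 of the 9 genes were called. *Barx2* was not, and *Ovol1* had a log2 fold change of 1.32. That fit called 460 of all tested genes, against 180 in the main fit.

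**Figure D3:**
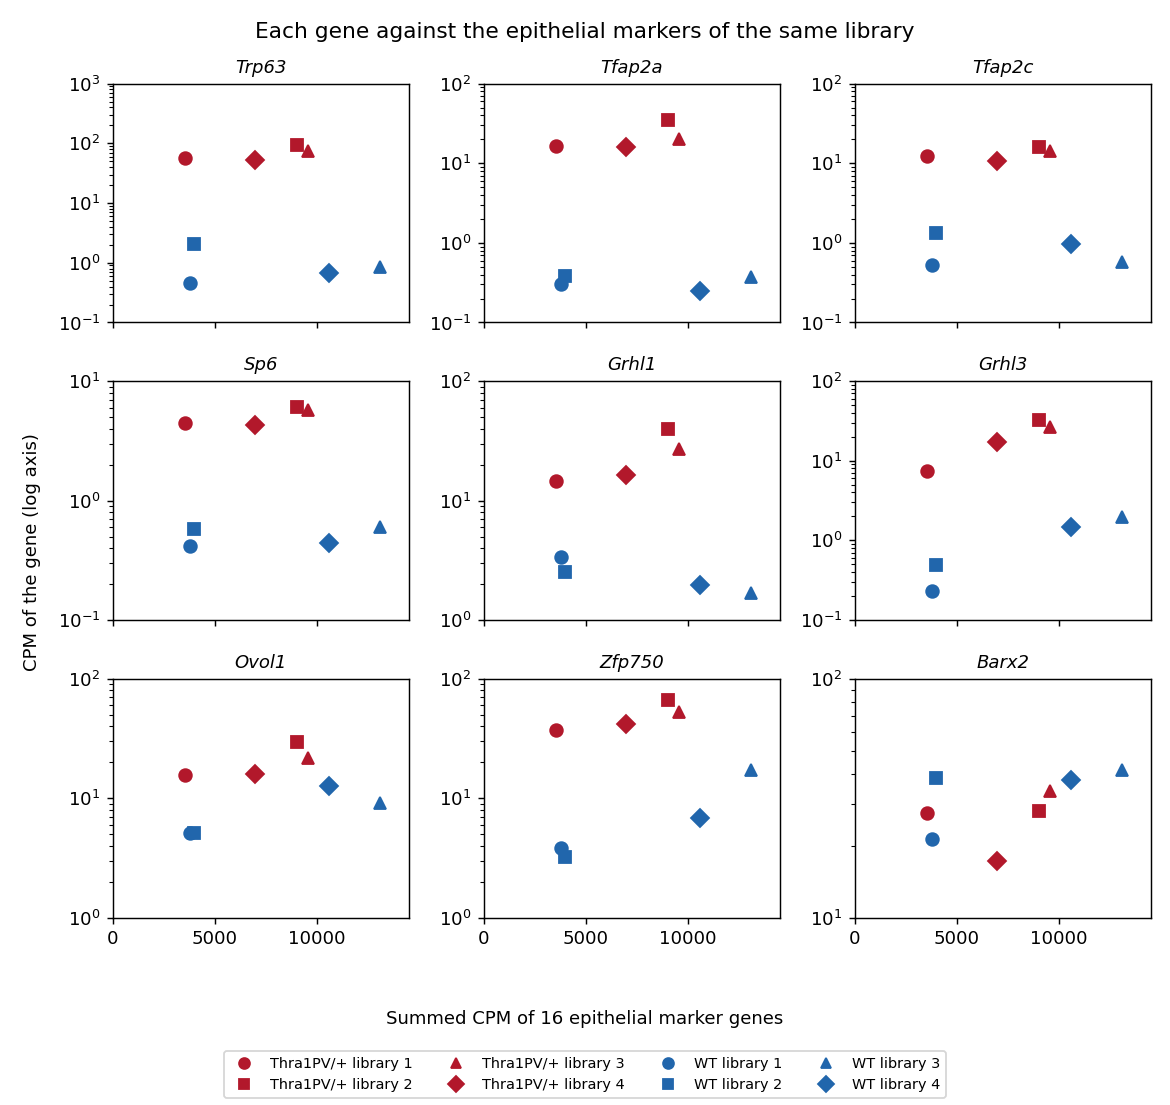
CPM of each of the 9 genes (log axis) against the summed CPM of 16 epithelial marker genes in the same library, with WT libraries in blue and *Thra1PV/+* libraries in red. The genotypes share the range of epithelial markers, and at low marker sums (*Thra1PV/+* library 1 with 3553 CPM, WT libraries 1 and 2 with 3773 and 3957 CPM) the red symbol lies above the blue ones for every gene but *Barx2*.

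Close relatives of the 9 genes, which are not among the genes chosen, were mostly not called. Of 17 relatives from the p53, AP-2, Sp, Grainyhead-like, OVO-like and BARX families, 10 passed the count filter, and 1 was called. That gene was *Trp73*, which encodes p73, with 222, 118, 128 and 139 counts in *Thra1PV/+* and 3, 1, 0 and 0 counts in WT libraries. Against a floor of 3 counts per library it was at least 49.3-fold higher. *Trp53*, the p53 gene itself, had 87.0 ± 11.5 CPM (SD, n = 4) in *Thra1PV/+* and 78.9 ± 14.1 CPM in WT endometrium (log2 fold change 0.14, standard error 0.16).

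*Grhl2*, the member of its family that simple epithelia also use, had 58.6, 77.0, 74.0 and 87.6 CPM in *Thra1PV/+* and 21.4, 66.3, 89.5 and 68.6 CPM in WT libraries. The genotypes overlapped (log2 fold change 0.27, standard error 0.38, adjusted p = 0.873). *Ovol2* likewise overlapped, at 9.08 ± 3.46 CPM and 15.4 ± 11.4 CPM (log2 fold change -0.76, standard error 0.51). The Sp relatives *Sp1*, *Sp2*, *Sp3*, *Sp4*, *Sp5* and *Sp7* had log2 fold changes between -0.76 and 0.06, and *Sp1*, with the highest counts of them, had 98.9 ± 12.0 CPM and 103 ± 6.57 CPM. The other 7 relatives, *Tfap2b*, *Tfap2d*, *Tfap2e*, *Sp8*, *Sp9*, *Ovol3* and *Barx1*, had at most 6 counts in any library and were not tested. The median log2 fold change was -0.02 over the 10 relatives, 3.35 over the 9 genes and -0.05 over all genes tested. That the 9 genes differed from their relatives was not tested.

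**Figure D4:**
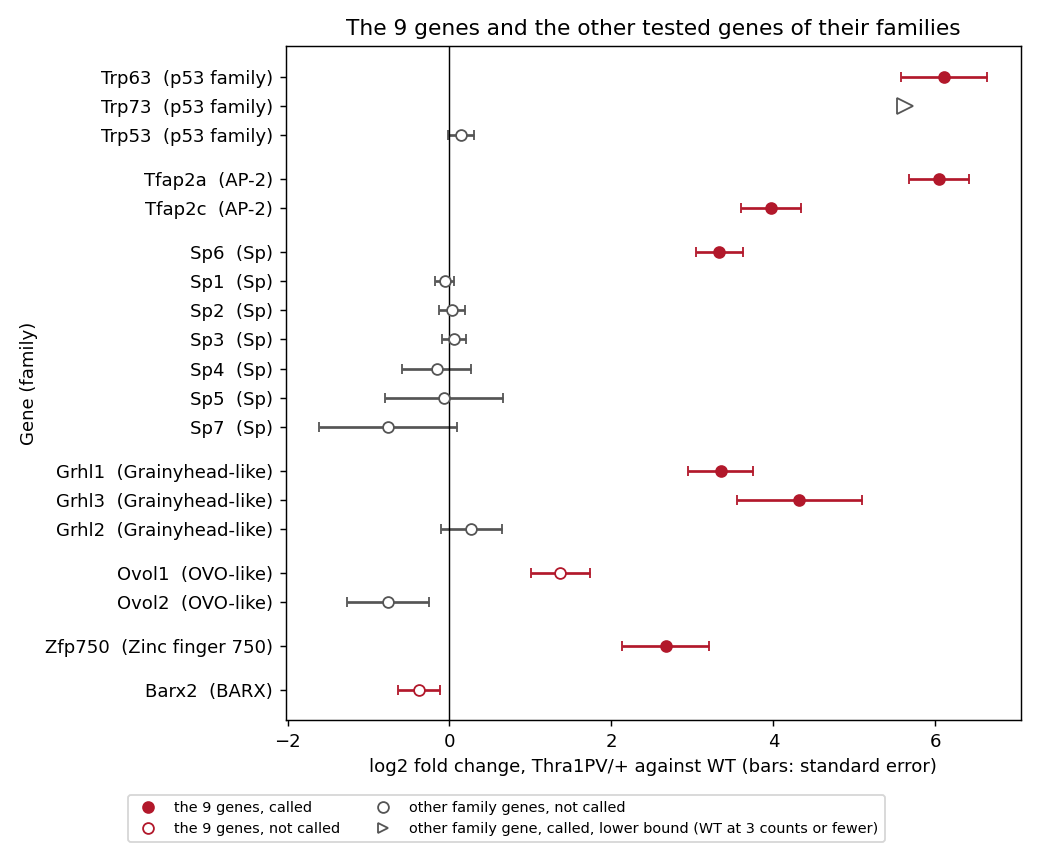
log2 fold change of *Thra1PV/+* against WT with its standard error for the 9 genes (red) and the tested relatives from the same families (grey). Filled symbols were called and open circles were not, and the open triangle gives *Trp73* at its lower bound. *Trp63* and *Trp73* lie far to the right of *Trp53*, and *Grhl1* and *Grhl3* to the right of *Grhl2*.

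Other transcription factors known from squamous epithelia were followed in a list of 40 genes, of which 34 were tested. Of these, 7 were called higher and 0 lower, and the median log2 fold change was 0.52. *Pitx1*, a homeobox gene of limb and oral epithelium, had 14.7, 48.4, 20.8 and 20.0 CPM in *Thra1PV/+* libraries and 0, 0.433, 0.219 and 0.293 CPM in WT libraries (log2 fold change 6.76, standard error 0.91, adjusted p = 0.0192). *Foxn1*, which starts keratinocyte differentiation in hair follicle and thymus, had 4.12 ± 2.05 CPM and 0.0825 ± 0.115 CPM (SD, n = 4; log2 fold change 5.63, standard error 1.04). When 1 library was left out at a time, it lost its call in 5 of the 8 fits (without *Thra1PV/+* library 2, 3 or 4 or WT library 1 or 3), with log2 fold changes of 5.25 to 7.20 over the 8. *Sox15* and *Bnc1*, both factors of basal keratinocytes, had log2 fold changes of 4.90 (standard error 0.77) and 4.63 (standard error 0.73). *Sox15* was called in 5 of the 8 fits (not without *Thra1PV/+* library 3 or WT library 2 or 4), and *Bnc1* in 6 (not without library 3 of either genotype). *Gata3*, a factor of skin barrier and luminal lineages, had 11.3 ± 1.85 CPM against 1.97 ± 0.767 CPM (log2 fold change 2.51, standard error 0.34, adjusted p = 0.0192) and was called in all 8. The calls of *Foxq1* (log2 fold change 1.72) and *Msx2* (1.08) stood in 2 and 1 of the 8 fits. Of the 27 genes not called, those with the highest mean CPM were *Elf3*, at 790 ± 324 CPM and 628 ± 550 CPM, and *Ehf*, at 281 ± 88.0 CPM and 258 ± 136 CPM, both ETS factors that simple epithelia express too. In the 8 fits, 2 to 7 genes of the list were called.

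Signals and factors that are known to switch on p63 in the Müllerian epithelium of the developing vagina were also looked up. *Runx1*, which acts with SMAD4 in that switch, had 54.0, 92.3, 65.9 and 60.4 CPM in *Thra1PV/+* libraries and 10.2, 8.36, 30.3 and 39.3 CPM in WT libraries. It did not overlap between the genotypes and was not called by edgeR (log2 fold change 1.63, standard error 0.50, adjusted p = 0.327), though DESeq2 called it. *Smad4* had 71.9 ± 10.5 CPM and 64.0 ± 7.27 CPM (log2 fold change 0.17, standard error 0.15). The ligands *Bmp4*, *Inhba*, *Fgf7* and *Fgf10* were all under 11 CPM on average, with log2 fold changes between -1.38 and -0.25, and the receptors *Bmpr1a*, *Acvr1b* and *Fgfr2* lay between -0.46 and -0.06, none of them called.

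Known p63 target genes were followed in a list of 30, all tested, of which 10 were called higher and 0 lower, with a median log2 fold change of 0.85. The list holds *Bnc1* again and was written from general knowledge. The largest log2 fold changes were 7.84 for *Krt15*, 7.54 for *Dsc3*, 7.43 for *Krt5* and 7.28 for *Fat2*. *Dsc3*, a desmosomal cadherin, had 7.66 ± 3.57 CPM in *Thra1PV/+* and 0.0387 ± 0.0344 CPM in WT endometrium (standard error 0.77, adjusted p = 0.00582). *Krt15* and *Krt5*, keratins of basal cells, were not called without WT library 4 (adjusted p = 0.115 for both, with log2 fold changes of 7.69 and 7.39). Among the genes not called, *Perp*, a desmosome gene that p63 activates, had 356 ± 122 CPM and 106 ± 76.0 CPM, and *Dsp*, which encodes desmoplakin, had 302 ± 62.3 CPM and 149 ± 78.5 CPM. Their log2 fold changes were 1.74 (standard error 0.49) and 1.02 (standard error 0.37), and the genotypes overlapped in both.

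Among the products of later differentiation, 34 genes of the cornified envelope and upper layers were listed and 22 tested. Of these, 6 were called higher and 0 lower, 21 had a log2 fold change above 0, and the median was 2.56, also with *Ivl* at its lower bound. *Ivl*, which encodes the envelope protein involucrin, had at most 2 counts in a WT library and 432 to 891 counts in *Thra1PV/+* libraries, at least 221-fold more against the floor of 3 counts. *Lypd3*, *Krt13* and *Calml3*, genes of the suprabasal layers, had log2 fold changes of 6.58, 6.08 and 5.54. *Krt13* was called in 1 of the 8 fits without a library (the fit without WT library 1) and *Lypd3* in 4 (not without library 2 of either genotype, *Thra1PV/+* library 3 or WT library 4). *Sprr1a*, an envelope gene with 377 ± 175 CPM and 27.0 ± 22.1 CPM, was not called (log2 fold change 3.80, standard error 0.82, adjusted p = 0.122). *Ppl*, which encodes periplakin, had 90.7 ± 38.7 CPM and 51.2 ± 27.3 CPM and was not called either. In the fits without a library, 3 to 6 genes of the list were called, and DESeq2 called 14.

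Of 21 genes known as targets of AP-2, Grainyhead-like or OVOL factors, 18 were tested and 1 was called higher, *Rhov*, which encodes a small GTPase. It had 35.6, 58.1, 38.4 and 31.8 CPM in *Thra1PV/+* libraries and 0.649, 0.921, 2.47 and 1.26 CPM in WT libraries (log2 fold change 4.95, standard error 0.47, adjusted p = 0.00394). Targets shared with simple epithelium overlapped between the genotypes. *Epcam* had 656 ± 251 CPM and 616 ± 372 CPM, and *Cdh1*, the E-cadherin gene, had 541 ± 157 CPM and 577 ± 238 CPM. Of the list, *Krt16* had the largest log2 fold change, 6.51 (standard error 1.49), and was not called (adjusted p = 0.154). It is named after its values were seen. *Krt16* stood at 23.9 CPM in *Thra1PV/+* library 2 and at 1.12 to 4.33 CPM in the other 3.

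**Figure D5:**
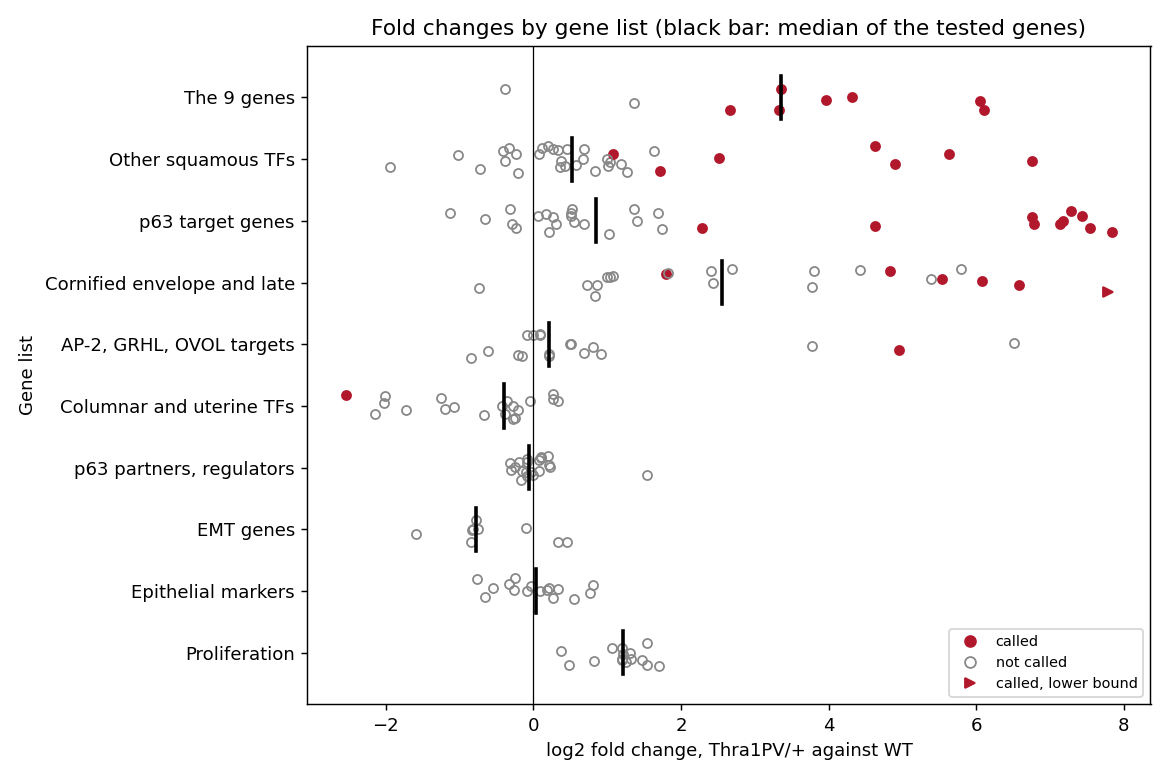
log2 fold change of *Thra1PV/+* against WT for each tested gene of the lists named on the left, with called genes filled, genes not called open, and a bar at the median of the list. The triangle gives *Ivl* at its lower bound. Called genes lie to the right of 0 in the squamous lists, and the only called gene to the left is *Foxj1* among the columnar and uterine factors.

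Factors of the columnar and uterine lineage gave a median log2 fold change of -0.40 over 20 tested genes, of which 0 were called higher and 1 lower. Some genes of this list are also among the 12 stroma markers, whose median was -0.83. The part of stroma in the list median was not tested. *Foxj1*, the factor of ciliated cells, fell from 17.0 ± 4.66 CPM in WT to 2.94 ± 0.595 CPM in *Thra1PV/+* endometrium (log2 fold change -2.54, standard error 0.27, adjusted p = 0.00723). *Esr1*, the estrogen receptor gene, had 279 ± 91.6 CPM and 323 ± 82.0 CPM, and *Msx1* had 217 ± 84.8 CPM and 264 ± 189 CPM. Of 20 partners and regulators of p63, among them *Nedd4* at 632 ± 206 CPM and 671 ± 128 CPM and the corepressor gene *Ctbp1* at 204 ± 14.7 CPM and 229 ± 14.5 CPM, edgeR called 0 and DESeq2 1, and 1 had an unadjusted p under 0.05 from edgeR. Of 9 genes of epithelial-mesenchymal transition, which OVOL factors are known to repress, 0 were called by either tool or had an unadjusted p under 0.05. Their median log2 fold change was -0.78, beside -0.83 for the 12 stroma markers, and those with the highest mean CPM were *Vim*, at 194 ± 157 CPM and 333 ± 171 CPM, and *Fn1*, at 189 ± 227 CPM and 318 ± 149 CPM.

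*Klf9*, the Krüppel-like gene that thyroid hormone receptors induce and that the study followed, had 16.1, 3.59, 5.62 and 4.22 CPM in *Thra1PV/+* and 54.1, 38.5, 10.7 and 17.1 CPM in WT libraries. The genotypes overlapped in 1 pair of libraries, *Thra1PV/+* library 1 against WT library 3. EdgeR did not call *Klf9* (log2 fold change -2.02, standard error 0.65, adjusted p = 0.351), whereas DESeq2 did. The study also reported lower *Klf9* in the mutant uterus by spatial profiling of epithelium and stroma, qPCR, western blot and staining of sections. Within each genotype *Klf9* was highest in library 1, which held many stroma and few epithelial markers, and *Grhl3* was lowest in those same libraries.

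Markers of other cell types were set beside these results. Of 17 hair follicle and melanocyte markers, 6 were tested and 1 was called, *Krt33b*, a hair keratin gene with 22 to 47 counts in *Thra1PV/+* and at most 1 count in WT libraries, at least 9.52-fold more. The summed level of these markers was 9.09 to 20.6 CPM in *Thra1PV/+* and 6.64 to 13.4 CPM in WT libraries, and 2 of them were at 0 in every library. Of the trophoblast markers, which share AP-2γ with squamous cells, 2 of 10 were tested, 0 were called by edgeR or DESeq2 or had an unadjusted p under 0.05, and 4 were at 0 in all libraries. Of 10 leukocyte markers, 9 were tested. EdgeR called 0 of them and DESeq2 2, and 4 had an unadjusted p under 0.05 from edgeR, all higher. The leukocyte markers summed to 302 to 921 CPM in *Thra1PV/+* and 119 to 394 CPM in WT libraries. Much of the highest sum, in *Thra1PV/+* library 2, was *S100a8* and *S100a9*, with 188 and 412 CPM. Of the stroma markers, edgeR called 0 of 12 and DESeq2 1, and 2 had an unadjusted p under 0.05. Of 9 smooth muscle markers, 0 were called by either tool and 8 had an unadjusted p under 0.05, all lower. Of 6 tested nerve markers, edgeR called 0 and DESeq2 1, with 2 at an unadjusted p under 0.05. For 8 endothelial markers these counts were 0. Of 6 tested markers of ciliated cells, 1 was called, *Foxj1* again. The 15 proliferation genes tested all had log2 fold changes above 0, with a median of 1.22. Of them, 0 were called by either tool or had an unadjusted p under 0.05. They summed to 571 CPM in *Thra1PV/+* library 1, to 166 to 240 CPM in the other *Thra1PV/+* libraries and to 102 to 250 CPM in WT libraries. The part of these cell types in the levels of the 9 genes was not tested.

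Genes with a pattern most like that of *Trp63* were looked for among the 13357 other tested genes whose mean log2 CPM reached 1. Over the 8 libraries, *Def6* (r = 0.992), *Ces2f* (0.992), *Kcnj15* (0.991), *Gpt* (0.991) and *Fat2* (0.987) had the highest Pearson r of log2 CPM, which the genotype difference dominates. *Kcnj15*, a potassium channel gene, had 54.4 CPM in *Thra1PV/+* and 0.699 CPM in WT endometrium on average, whereas *Def6* had 22.8 CPM and 11.8 CPM. When the genotype means were removed, the highest were *Suco* (0.980), *Ptk2b* (0.978), *Secisbp2l* (0.973), *Spice1* (0.972) and *Myd88* (0.967). The log2 fold changes of these 5 genes lay between -0.54 and 0.06, and none of them was among the 5 named for all 8 libraries. The rankings as a whole were not compared. These values describe 8 libraries out of a large number of genes compared.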

How the data were processed

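RNA from the dissected endometrium of 4 WT and 4 *Thra1PV/+* mice was made into stranded mRNA libraries and sequenced with paired ends. Per the methods of the study and the submitters' notes, reads were trimmed with Trimmomatic and quantified with salmon for mm10, and versions are not given in the sources used here. The authors deposited salmon's estimated counts summed per gene and not normalized, and in a separate table the TPM of each gene. After sorting, the TPM of the 8 libraries differed by at most 0.291 at any rank, which is the form that quantile normalization gives. In that table, 1 further column that matched no sample was not used.

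Estimated counts were rounded and tested with edgeR 4.0.16 (R 4.3.3, limma 3.58.1), on 18174 genes kept by filterByExpr (minimum count 10, minimum total 15), with TMM normalization, genotype as the sole term and Benjamini-Hochberg adjustment over all genes tested. The call rule, a fold change of 2 and an adjusted p of 0.1, was that of the study. DESeq2 1.42.0, the tool of the study, was run as an alternative, and genes to which it gave no adjusted p were not called. Identifiers with no gene symbol made up 0.00897% of a library's counts or less. Log2 CPM used a prior count of 2. Only the main edgeR fit was tested on simulated data, drawn with its own estimates of spread and without differences in tissue makeup between libraries. Counts of 3 or fewer were treated as the floor, and n is the number of mice in a genotype, with the spread taken over their libraries.

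The 9 genes, the 20 gene lists, the tests and the alternatives were chosen with earlier results of these data known, and the lists were written from general knowledge. The genes named are the 9 with their values, *Thra*, *Klf9*, all relatives and the Müllerian p63 inducers, up to 4 called genes of each other list by log2 fold change, the 2 with the highest mean CPM among those not called, and 5 genes most like *Trp63* by each measure. Marker and proliferation lists are given mainly as counts, and *Gata3*, *Foxq1*, *Msx2*, *Krt16*, *S100a8* and *S100a9* were named in addition after their values were seen. A result that needs a withheld item is not reported here. Alternatives were other normalizations, filters, tools and thresholds, the replicate number as a block, the deposited TPM, and each library left out in turn. Gene positions are from GENCODE M21 (GRCm38), and *Ovol1* there has a later identifier version than in the counts.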

Additional observations from a re-analysis of the deposited data

Results flagged for a closer look

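The level of *Barx2* in WT library 1, a log2 CPM of 4.42, stood far below the other 3 WT libraries, which lay between 5.23 and 5.37. The gap to the nearest library made up 0.854 of the whole range of the group, above the critical value of Dixon's ratio at 95%. Of 18 groups of 4 libraries compared in this way, 9 genes in each genotype, 1 exceeded it, where chance gives 0.9. WT library 1 was also the library with the highest sum of smooth muscle markers. Without it, the log2 fold change of *Barx2* was -0.51.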

How the results depend on the processing

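The number of the 9 genes called was 7, and between 5 and 8 under every alternative run. Without 1 library it was 5 to 7, and *Trp63*, *Tfap2a*, *Tfap2c*, *Sp6* and *Grhl1* were called in all 8 of those fits. The log2 fold changes of the 9 genes kept their sign under each alternative run. Those of *Thra* and *Trp53*, which were not called, did not: *Thra* was at -0.23 without *Thra1PV/+* library 1, -0.11 without WT library 3 and -0.14 without WT library 4, and *Trp53* at -0.03 with limma voom and quality weights. Over all genes tested, 180 were called, against 81 with at least 10 counts in every library, 311 with limma voom and quality weights, 460 with the epithelial marker covariate (chosen after seeing the data) and 791 with DESeq2. Leaving out 1 library gave 81 (without *Thra1PV/+* library 3) to 167, with 116 without *Thra1PV/+* library 2 and 114 without WT library 4. Of the genes of the lists other than the 9, 27 were called, against 11 with at least 10 counts in every library, 43 with the covariate, 46 with DESeq2 and 19 to 25 without 1 library. The filter of 10 counts in every library removes genes near 0 in WT. For the others the cause was not tested.

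The labels do not say whether libraries with the same replicate number were paired or shared a batch. Deviations from the genotype means correlated with r of 0.27, -0.44, 0.34 and -0.16 in the same-numbered pairs. Of the 4 numbers, 1 had its own partner as the best. With the replicate block, 82 genes in all, 17 genes of the lists and 6 of the 9 genes were called, *Zfp750* being lost. The order of the 9 genes in *Thra1PV/+* libraries by CPM per kb of transcript put 3 genes at the same rank as TPM.

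Genes near the floor in WT endometrium have few counts behind their ratios, and 4 libraries per genotype limit the precision of all of them.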
